A study of Mus musculus with 18 samples.

Results

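The promoter interactions of definitive endoderm (DE) were compared with those of embryonic stem cells (ESC) by distance from the promoter. The 6 libraries of the promoter capture from these cell types, 3 of each, were taken from the 18 captured libraries of the study. Their 36 of 108 columns hold 6 viewpoints each. Eomes, Foxa2 and Lhx1 are developmental viewpoints, and Hba, Hbb and Slc25a37 are erythroid viewpoints. For each column, interactions were summed within 20 kb, from 20 to 200 kb, from 200 kb to 2 Mb and beyond 2 Mb on the same chromosome (in cis), and on other chromosomes (in trans). ESC and DE share the strain 129/Sv//EV. ESC were kept undifferentiated with serum and LIF on gelatin. DE were collected on day 5 after the same kind of cells had formed embryoid bodies without LIF and had then been moved to N2B27 medium with ActivinA and EGF. The design text calls the samples biological triplicates. Embryoid bodies hold cells of several fates, and no sort is described in the labels, so an interaction in DE is an average over whatever cells the bodies held. The files hold contacts and no transcripts, so neither cell type could be checked against its marker genes. The remaining 12 libraries are erythrocytes and the enhancer capture, and they enter here only where named.

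In NG Capture-C, crosslinked chromatin is cut and religated, and fragments joined to a chosen viewpoint are captured and sequenced, so that their number gives the frequency of contact. Contact frequency falls with distance along a chromosome, and departures from that fall mark domains, loops between promoters and enhancers, and clusters of promoters that share a chromatin state. In ESC the promoters of silent developmental genes often lie in CpG islands bound by Polycomb proteins, and such promoters are known to meet over long distances. Eomes is a T-box transcription factor needed to form definitive endoderm. Foxa2 is a forkhead factor of endoderm and axial midline, and Lhx1 is a LIM homeodomain factor of anterior mesendoderm. Hba and Hbb are the adult alpha- and beta-globin genes and Slc25a37 encodes mitoferrin, which carries iron into mitochondria of red cell precursors. These 3 erythroid genes have no known part in endoderm formation.

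The promoters of 5 viewpoints are shown because their CpG content differs widely and because each lies in a captured zone. Each sequence runs 5′ to 3′ from 250 bases before to 50 bases after the annotated start (build NCBIM37), with CpG dinucleotides in capitals.
Eomes promoter, chr9:118387080-118387379 (+ strand): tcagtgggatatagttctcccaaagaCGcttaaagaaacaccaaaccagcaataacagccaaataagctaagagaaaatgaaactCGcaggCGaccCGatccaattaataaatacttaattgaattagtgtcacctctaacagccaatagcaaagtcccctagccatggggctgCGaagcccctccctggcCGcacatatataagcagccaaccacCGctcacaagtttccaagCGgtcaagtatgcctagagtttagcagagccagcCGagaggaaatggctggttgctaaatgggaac
Foxa2 promoter, chr2:147872656-147872955 (- strand): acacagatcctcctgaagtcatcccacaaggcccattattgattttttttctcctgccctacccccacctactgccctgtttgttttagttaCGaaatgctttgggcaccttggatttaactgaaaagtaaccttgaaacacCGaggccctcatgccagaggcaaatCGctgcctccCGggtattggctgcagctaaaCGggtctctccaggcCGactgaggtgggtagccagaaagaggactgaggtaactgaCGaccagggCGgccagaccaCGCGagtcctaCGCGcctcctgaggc
Lhx1 promoter, chr11:84338874-84339173 (- strand): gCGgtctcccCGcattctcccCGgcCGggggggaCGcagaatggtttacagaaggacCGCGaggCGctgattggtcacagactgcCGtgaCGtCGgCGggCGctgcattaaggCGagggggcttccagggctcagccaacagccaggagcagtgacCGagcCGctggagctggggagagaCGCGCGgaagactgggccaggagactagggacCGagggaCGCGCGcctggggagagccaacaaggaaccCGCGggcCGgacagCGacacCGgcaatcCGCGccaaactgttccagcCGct
Hba-a2 promoter, chr11:32196239-32196538 (+ strand): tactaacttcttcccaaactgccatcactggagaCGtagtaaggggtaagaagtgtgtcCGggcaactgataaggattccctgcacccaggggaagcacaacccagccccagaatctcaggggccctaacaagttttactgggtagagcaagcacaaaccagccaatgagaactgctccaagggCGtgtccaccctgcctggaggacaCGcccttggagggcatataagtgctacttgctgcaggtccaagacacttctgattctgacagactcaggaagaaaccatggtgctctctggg
Hbb-b2 promoter, chr7:110962461-110962760 (- strand): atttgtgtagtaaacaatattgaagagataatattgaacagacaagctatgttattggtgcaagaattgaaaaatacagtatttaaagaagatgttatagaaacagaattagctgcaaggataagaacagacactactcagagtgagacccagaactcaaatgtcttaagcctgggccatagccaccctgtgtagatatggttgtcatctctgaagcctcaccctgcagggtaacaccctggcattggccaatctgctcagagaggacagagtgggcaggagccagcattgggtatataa
CpG counts in these 300 bases were 9 for Eomes, 12 for Foxa2, 31 for Lhx1, 4 for Hba-a2 and 0 for Hbb-b2. Of 32851 RefSeq promoters of the same length (assembly GRCm38.p6), 54.2% held fewer CpG than Eomes, 60.4% fewer than Foxa2, 89.4% fewer than Lhx1 and 31.4% fewer than Hba-a2. None could hold fewer than Hbb-b2, which held 0. The promoter of the remaining viewpoint, Slc25a37, is not shown. It held 16 CpG, more than Eomes and Foxa2, and 67.0% of the RefSeq promoters held fewer. Over the whole captured zones, which were wider, the globin zones stood apart. The Lhx1 zone had 66.1 CpG per kb, Eomes 62.0, Slc25a37 54.2 and Foxa2 47.8, whereas both Hba zones had at most 14.2 and both Hbb zones at most 4.52. Each globin viewpoint pools near-identical gene copies (Hba-a1 with Hba-a2, Hbb-b1 with Hbb-b2), so reads of one copy cannot be set apart from those of the other. Distances were taken to the nearest captured zone of a viewpoint.

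Depth differed between the cell types. The Eomes viewpoint had 13767 to 22002 interactions per ESC library and 33673 to 55736 per DE library. The deepest viewpoint was Hba, with 52684 to 84184 in ESC and 100220 to 192158 in DE, and the shallowest was Hbb, with 5349 to 8005 in ESC and 14885 to 26419 in DE. One library stood apart. In ESC replicate 3 the percent of interactions in trans was above that of both other ESC libraries at all 6 viewpoints, by 4.03 (Slc25a37) to 9.32 (Lhx1) percentage points over their mean, which put it inside or near the DE range. DE replicate 3 was also the highest DE library in trans at all 6 viewpoints, for example 46.5% against 44.3% and 45.2% at Lhx1. In the enhancer capture of the same cell types, ESC replicate 3 was likewise the highest ESC library in trans at all 6 viewpoints. Results are therefore given also as percent of cis interactions, which leaves trans out, and without that library. Depth and the trans share both move with cell type, and their part in the results was not tested. All 6 viewpoints were read from the same libraries, so they are not independent of each other, and the shares of a column sum to 100%, so a lower share in 1 class must be met by a higher share in another.

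The interactions closest to the promoter took a smaller share in DE than in ESC at every viewpoint. At Lhx1, 20.3%, 19.5% and 17.3% of interactions in ESC lay within 20 kb, against 9.88%, 9.83% and 10.1% in DE. The DE libraries were tightly grouped, and all lay below the lowest ESC library. In limma over the 30 class values the log2 change was -0.94, with a standard error of 0.07 and an adjusted p of 2.98e-05. At Foxa2 the share was 17.1% ± 1.29 (SD, n = 3) in ESC and 10.5% ± 0.371 in DE (log2 change -0.71, adjusted p = 0.000118 by limma). At Eomes it was 14.1% ± 1.53 in ESC and 9.12% ± 0.151 in DE (-0.62, adjusted p = 0.000562). The erythroid viewpoints had smaller changes. Hba went from 19.1% ± 1.70 to 14.5% ± 0.252 (-0.39, adjusted p = 0.00219), Hbb from 10.2% ± 0.941 to 7.34% ± 0.174 (-0.47, adjusted p = 0.00135) and Slc25a37 from 10.8% ± 0.992 to 8.02% ± 0.664 (-0.43, adjusted p = 0.00302). In none of the 6 did the DE and ESC libraries overlap. Across all viewpoints and classes, 18 values passed the threshold by limma (60.0% of the 30), of which 10 were lower in DE (33.3%) and 8 higher (26.7%). As a percent of cis interactions 20 of 24 values passed (83.3%), 10 in each direction (41.7%), and all 6 viewpoints fell within 20 kb, by between -0.76 at Lhx1 and -0.29 at Hba. When erythrocytes were added to the fit, none of the 30 values passed the threshold. The trans share in erythrocyte replicate 2 was 20.6% to 33.8% over the viewpoints, against 55.3% to 77.9% in replicates 1 and 3, and this spread enters that fit.

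**Figure D1:**
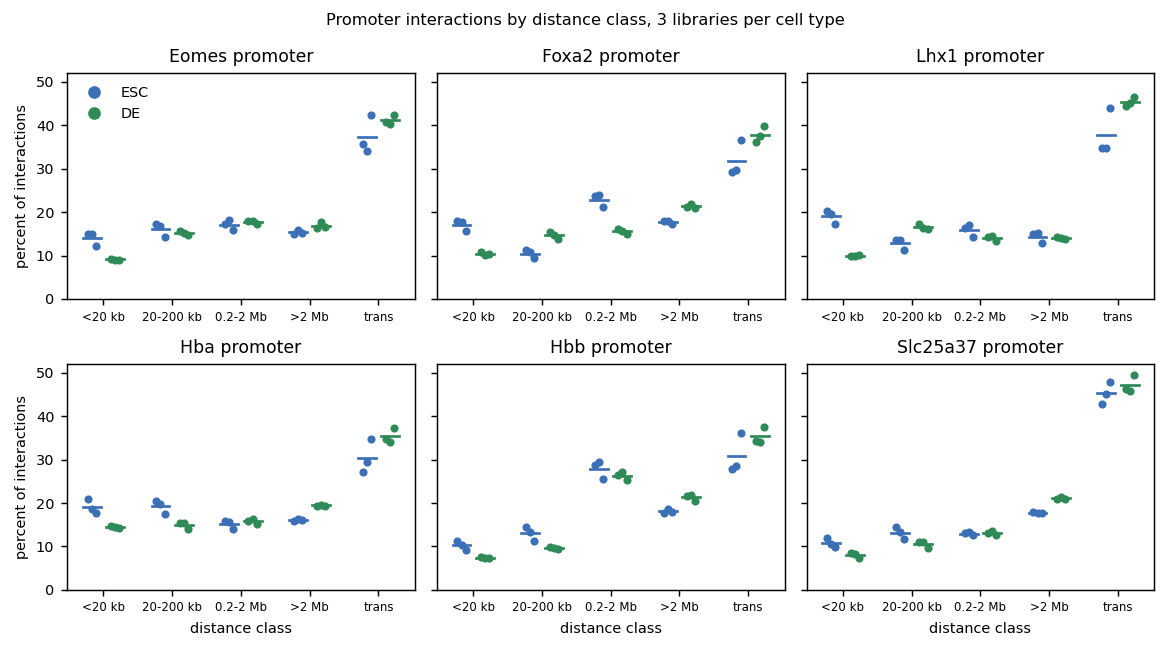
Percent of interactions in each distance class (x axis) at the 6 promoter viewpoints, with 1 point per library and a line at the mean of 3 libraries, ESC in blue and DE in green. All DE points lie below all ESC points within 20 kb at every viewpoint, whereas from 20 to 200 kb DE is higher at Foxa2 and Lhx1 and lower at Hba, Hbb and Slc25a37.

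Within the nearest 20 kb the fall was largest beside the Lhx1 promoter. The 2 kb bin centred 1 kb from the centre of the Lhx1 zone lies on the side of higher coordinates, upstream of this minus-strand gene. The zone is 2.18 kb wide and holds no values, so only fragments outside it count in that bin. The bin had 3043, 3162 and 2984 interactions per 100000 in ESC. In DE it had 817, 872 and 1050 (log2 change -1.74, adjusted p = 3.54e-07 by limma over 1057 bins). Every DE library lay far below every ESC library. At Foxa2 the largest fall was 7 kb to the side of lower coordinates, the downstream side, from 1968 ± 133 to 816 ± 96.8 (-1.26, adjusted p = 8.16e-06). At Eomes it was the bin centred 1 kb from the zone centre to the side of higher coordinates, from 644 to 284 (-1.16, adjusted p = 0.000199). The Eomes zone is 3.58 kb wide and takes up most of that bin. Over all viewpoints and distances, 315 of 1057 bins passed the threshold (29.8%), of which 164 were higher in DE (15.5%) and 151 lower (14.3%). The split depended on the scaling, with 226 higher and 133 lower per 100000 cis interactions and 96 higher and 168 lower by DESeq2. Within 20 kb, 34 of 59 developmental bins were lower in DE and 1 was higher, and 27 of 59 erythroid bins were lower and 0 higher. The bin that rose lay at the outer edge of this range at Foxa2, 19 kb away, where 195 interactions per 100000 in ESC became 374 in DE (0.97, adjusted p = 0.00797). The fall did not reach uniformly to 20 kb. In 1 log-spaced step centred at 15.9 kb the mean of DE over ESC was -0.05 at Foxa2 and -0.10 at Lhx1 on the log2 scale, against -0.38 at Eomes, -0.37 at Hba, -0.57 at Hbb and -0.32 at Slc25a37.

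Between 20 and 200 kb the viewpoints parted. Foxa2 had 11.2%, 10.8% and 9.35% of its interactions at this distance in ESC and 15.5%, 14.8% and 13.9% in DE. Every DE library was above every ESC library (log2 change 0.50, standard error 0.08, adjusted p = 0.00145 by limma). Lhx1 rose in the same way, from 13.6%, 13.6% and 11.3% to 17.2%, 16.3% and 16.2% (0.37, adjusted p = 0.00404). Neither gene has another annotated protein-coding start within this range, which holds 0 starts around Foxa2 and 0 around Lhx1. Eomes did not pass the test. Its shares were 17.2%, 16.8% and 14.3% in ESC and 15.6%, 15.1% and 14.8% in DE, which overlap (-0.08, 95% confidence interval -0.26 to 0.10, adjusted p = 0.398). The erythroid viewpoints all fell. Hba went from 19.3% ± 1.56 (SD, n = 3) to 14.9% ± 0.788 (-0.37, adjusted p = 0.00302), Hbb from 14.5%, 13.3% and 11.2% to a mean of 9.61% ± 0.278 (-0.43, adjusted p = 0.00404) and Slc25a37 from 13.2% ± 1.31 to 10.5% ± 0.796 (-0.32, adjusted p = 0.0134). As a percent of cis interactions, Foxa2 rose by 0.63 and Lhx1 by 0.55 on the log2 scale, Eomes was at 0.01 (adjusted p = 0.813), and the erythroid viewpoints lay between -0.33 and -0.27. Leaving out ESC replicate 3 brought Eomes past the threshold as lower in DE (-0.16, adjusted p = 0.00205), while Foxa2 was at 0.42 and Lhx1 at 0.28. The call of Lhx1 depended on the total and the bounds. It missed the threshold when 5 kb around the zone were left out (0.24, adjusted p = 0.0562), when all of the nearest 20 kb were left out (0.22, adjusted p = 0.104) and with bounds at 10 and 100 kb (0.21, adjusted p = 0.0684), whereas as a percent of cis interactions its adjusted p was 5.10e-07.

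**Figure D2:**
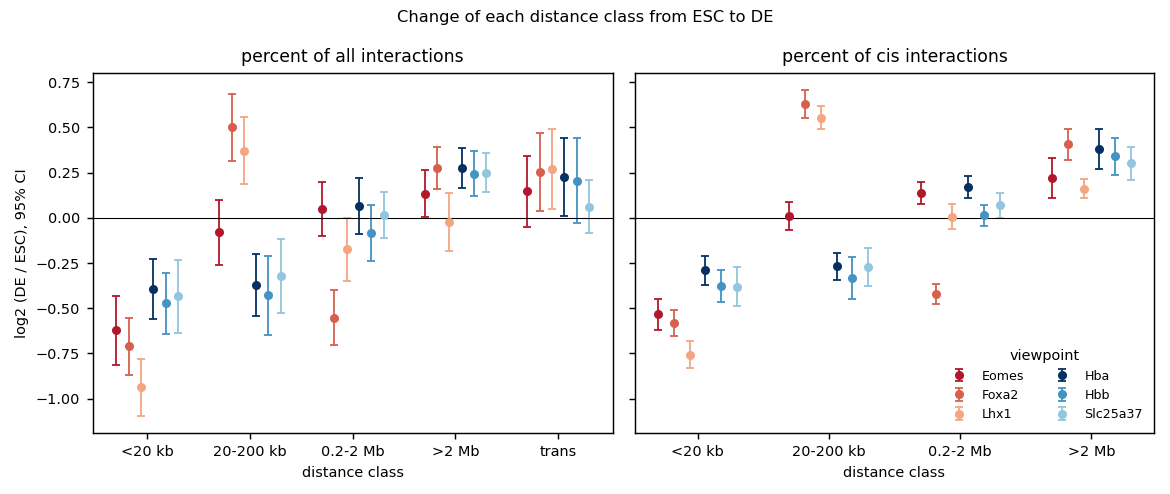
Log2 ratio of DE to ESC for each distance class and viewpoint, with 95% confidence intervals from limma, for the percent of all interactions (left) and of cis interactions (right). The developmental viewpoints are in red shades and the erythroid in blue shades. From 20 to 200 kb Foxa2 (0.50) and Lhx1 (0.37) lie above 0 and the erythroid viewpoints lie below it, between -0.43 and -0.32.

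The rise at Foxa2 and Lhx1 covered much of the range. At Foxa2, 19 of 36 bins of 10 kb were higher in DE and 0 lower, on both sides of the gene. The largest rise lay 55 kb to the side of higher coordinates, where ESC libraries had 315, 327 and 263 interactions per 100000 and DE libraries had 678, 645 and 625 (log2 change 1.09, adjusted p = 0.000115 by limma). DE levels were about the same in all 3 libraries. At Lhx1, 14 of 36 bins were higher and 1 lower. The largest rise there lay at the far end, 195 kb to the side of higher coordinates, with 183, 299 and 256 in ESC and 872, 839 and 979 in DE (1.85, adjusted p = 7.70e-06). The bin that fell at Lhx1 lay 115 kb away on the same side, from 1723, 1194 and 1274 in ESC to 838, 710 and 733 in DE (-0.86, adjusted p = 0.00105), so opposite changes stood on one side of the gene. Eomes had 3 bins higher and 8 lower. Its largest rise lay 195 kb to the side of lower coordinates, upstream of the gene, from 337 to 475 (0.48, adjusted p = 0.0234), and its largest fall 55 kb to the side of higher coordinates, from 363 to 222 (-0.66, adjusted p = 0.0319). At the erythroid viewpoints 33 of 108 bins were lower and 0 higher. All 36 Hba bins had a negative fold change, 16 of them past the threshold.

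**Figure D3:**
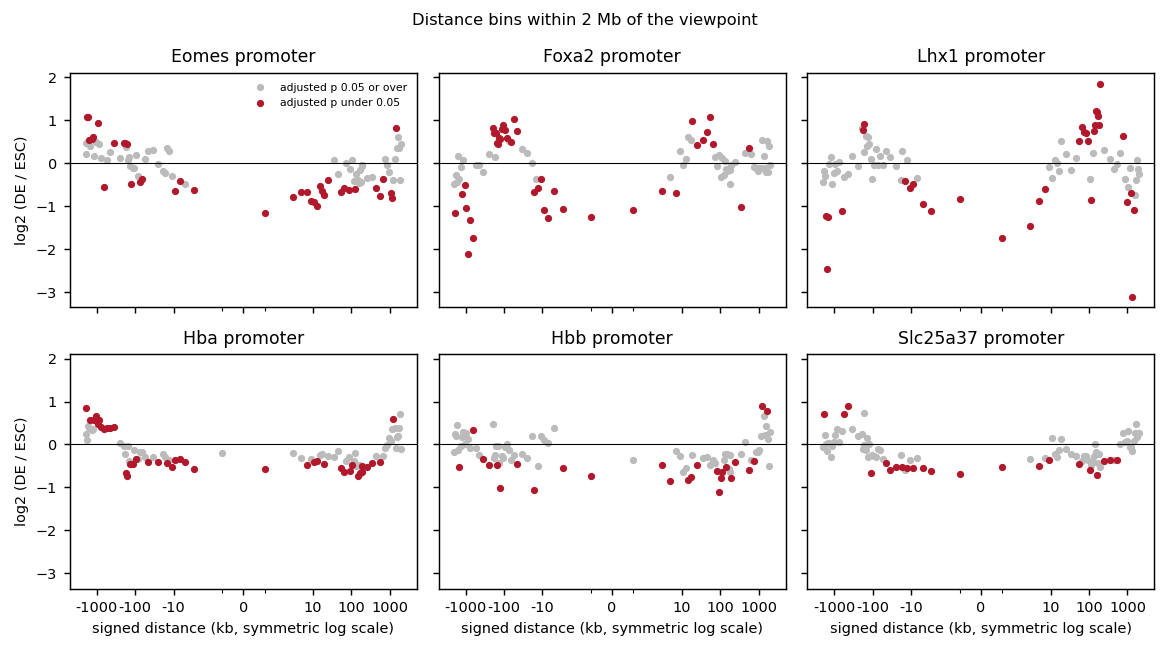
Log2 ratio of DE to ESC in bins by signed distance within 2 Mb of each viewpoint (x axis, symmetric log scale in kb, positive toward higher coordinates), with bins past the limma threshold in red. Foxa2 and Lhx1 show falls close to the promoter, rises around 20 to 200 kb and deep falls farther out, down to -2.11 and -3.10, while the erythroid viewpoints stay between about -1.11 and 0.90.

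From 200 kb to 2 Mb, Foxa2 was the only viewpoint whose share of all interactions passed the test. It fell from 23.6%, 23.9% and 21.1% in ESC to 16.1%, 15.7% and 15.0% in DE (log2 change -0.55, standard error 0.07, adjusted p = 0.000332 by limma), with no overlap between libraries. Lhx1 went from 15.9% ± 1.42 (SD, n = 3) to 14.1% ± 0.559 (-0.17, adjusted p = 0.0728), and its libraries overlapped. It passed as lower without the nearest 20 kb (-0.33, adjusted p = 0.0177) and without 5 kb around the zone (-0.31, adjusted p = 0.0169). Eomes was at 0.05, Hba at 0.07, Hbb at -0.08 and Slc25a37 at 0.02, all with overlapping libraries. These small values depended on the total. As a percent of cis interactions Eomes rose by 0.14 (adjusted p = 0.000882) and Hba by 0.17 (adjusted p = 0.000326), Lhx1 was at 0.01 (adjusted p = 0.813), and Foxa2 fell by 0.42 (adjusted p = 5.10e-07). Without ESC replicate 3, Lhx1 (-0.25, adjusted p = 4.78e-06) and Hbb (-0.14, adjusted p = 0.00729) passed the threshold as lower, in the fit with the pooled standard error.

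Deep falls stood in single bins. At Foxa2 and at Lhx1, 8 of 36 bins were lower in DE and 1 higher, and their part in the class share was not computed. At Foxa2, the 100 kb bin centred 850 kb to the side of lower coordinates alone had 3578, 3435 and 3037 interactions per 100000 in ESC and 689, 792 and 828 in DE (log2 change -2.11, adjusted p = 6.28e-08 by limma). In ESC this was more than 3 of every 100 Foxa2 interactions in each library. At Lhx1, the bin 1.35 Mb to the side of higher coordinates had 976, 1095 and 847 in ESC and 101, 125 and 87.8 in DE (-3.10, adjusted p = 6.28e-08), the largest fall among the bins named here. Of the developmental bins in this class, 22 of 108 were lower in DE and 10 higher, and 8 of the higher ones belonged to Eomes. The largest of these lay 1.75 Mb to the side of lower coordinates of Eomes, from 76.7, 95.4 and 79.9 in ESC to 191, 201 and 175 in DE (1.09, adjusted p = 0.00241). Of the erythroid bins, 18 of 107 were higher and 12 lower, beside 15.5% higher and 14.3% lower of all 1057 bins. At Hba, 12 of 36 were higher and 3 lower, the largest rise lying 1.95 Mb to the side of lower coordinates (from 75.5 to 143, 0.85, adjusted p = 0.0165). At Slc25a37 the bin 450 kb to the side of lower coordinates rose from 303 to 571 (0.90, adjusted p = 0.000585).

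Beyond 2 Mb in cis, 4 of the 6 viewpoints rose by a similar amount. Foxa2 went from 17.7% ± 0.371 (SD, n = 3) in ESC to 21.4% ± 0.536 in DE (log2 change 0.28, adjusted p = 0.00219 by limma), Hba from 16.1% ± 0.276 to 19.5% ± 0.132 (0.28, adjusted p = 0.00206), Hbb from 18.1% ± 0.480 to 21.4% ± 0.718 (0.24, adjusted p = 0.00404) and Slc25a37 from 17.7% ± 0.0939 to 21.1% ± 0.259 (0.25, adjusted p = 0.00239). At none of these did the libraries overlap. Eomes had 15.0%, 16.0% and 15.1% in ESC and 16.3%, 17.6% and 16.6% in DE, which did not overlap either but missed the threshold (0.13, adjusted p = 0.0692). Lhx1 was at -0.02 (adjusted p = 0.763), with 14.9%, 15.1% and 12.99% in ESC and 14.3%, 14.1% and 13.8% in DE. As a percent of cis interactions all 6 rose, with Lhx1 lowest at 0.16 (adjusted p = 0.000193) and Foxa2 highest at 0.41. Of 199 developmental bins of 2 Mb, 33 were higher and 12 lower, and of 185 erythroid bins 54 were higher and 2 lower. Of all 1057 bins 15.5% were higher and 14.3% lower, so the developmental count of rises is near the share over all bins. The largest fall at Foxa2 lay 13 Mb to the side of higher coordinates, from 629 to 301 (-1.04, adjusted p = 0.000239), at Eomes 27 Mb to the side of lower coordinates, from 500.1 to 257 (-0.92, adjusted p = 0.00103), and at Lhx1 29 Mb to the side of higher coordinates, from 329 to 175 (-0.88, adjusted p = 0.00135). At Hba and Hbb the largest falls were smaller (-0.46 and -0.51), and at Slc25a37 none passed the threshold.

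In trans, Foxa2 and Lhx1 were called higher in DE. Foxa2 had 29.3%, 29.7% and 36.6% in ESC and 36.2%, 37.5% and 39.8% in DE (log2 change 0.25, adjusted p = 0.0436 by limma), so ESC replicate 3 lay within the DE range. Lhx1 had 34.7%, 34.8% and 44.1% in ESC and 44.3%, 45.2% and 46.5% in DE (0.27, adjusted p = 0.0401). Both calls were lost when either other ESC library or any DE library was left out, and without the nearest 20 kb (0.14 and 0.12, adjusted p = 0.211 and 0.304). Without ESC replicate 3 the trans share was called higher at all 6 viewpoints, from 0.10 at Slc25a37 (adjusted p = 0.0492) to 0.38 at Lhx1 (adjusted p = 5.63e-11). These p-values again come from the fit with 1 standard error pooled over viewpoints of the same libraries. By chromosome, 9 of 63 developmental bins were called higher, 4 at Foxa2 (chromosomes 3, 6, 13 and X) and 5 at Lhx1 (chromosomes 4, 6, 8, 14 and 19), and 3 of 61 erythroid bins. Of all 1057 bins 15.5% were called higher, so the developmental count is near that share and the erythroid count is below it. No chromosome was called lower. Mitochondrial DNA, which lies outside the nucleus, took at most 0.105% of the interactions of any library, and its share overlapped between DE and ESC at all 6 viewpoints.

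The developmental and erythroid viewpoints were then compared within each library, as the mean log2 share of Eomes, Foxa2 and Lhx1 minus that of Hba, Hbb and Slc25a37. The clearest difference was at 20 to 200 kb. The erythroid viewpoints held the larger share in ESC, with values of -0.24, -0.17 and -0.20, and the developmental viewpoints in DE, with 0.44, 0.39 and 0.47. The sign thus differed between cell types in every library, and the mean change was 0.64. Within 20 kb the developmental viewpoints had the larger share in ESC (0.33, 0.45 and 0.35) and almost the same share as the erythroid in DE (0.02, 0.02 and 0.11), a change of -0.32. From 200 kb to 2 Mb the change was -0.23, from 0.06, 0.09 and 0.03 in ESC to -0.15, -0.19 and -0.16 in DE, and beyond 2 Mb it was -0.13. In these 4 classes the DE and ESC libraries did not overlap. The exact two-sided permutation test gave p = 0.1 for each, the smallest that 3 libraries against 3 allow (0.125 adjusted over the 5 classes). In trans the change was 0.06 with overlapping libraries (exact permutation p = 0.2). limma over the 5 classes, a test chosen after the values were seen, gave adjusted p = 2.64e-08 within 20 kb, 2.74e-13 at 20 to 200 kb, 3.96e-06 at 200 kb to 2 Mb, 0.00193 beyond 2 Mb and 0.101 in trans. That fit gave all 5 classes the same standard error (0.0347), pooled over classes of the same libraries. Its p-values thus treat dependent values as independent and overstate the evidence. The difference from 200 kb to 2 Mb turned to 0.09 when the classes were cut at 10 kb, 100 kb and 1 Mb, so it belongs to these bounds. The developmental mean also hides unlike members, since at 20 to 200 kb Eomes (-0.08) stood between the rise of Foxa2 and Lhx1 and the fall of the erythroid viewpoints.

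The shape of the cis profile set Foxa2 and Lhx1 apart again, but it was drawn from the same interactions as the class shares. The slope of log10 interactions per kb against log10 distance, over 10 log-spaced steps from 20 kb to 2 Mb, describes how fast contacts thin out. Single strong bins also enter it, and it tends to be steeper where the share rises from 20 to 200 kb and falls farther out. It is thus not separate support for the class results. At Foxa2 it was -0.78, -0.74 and -0.72 in ESC and -1.004 ± 0.0103 (SD, n = 3) in DE, a steeper fall in DE. At Lhx1 it was -0.92, -0.94 and -0.91 in ESC and -1.13, -1.10 and -1.11 in DE. The other viewpoints moved the opposite way. Hba went from -1.13 to -1.004 on average, Slc25a37 from -0.99 to -0.90, Hbb from -0.69 to -0.60 and Eomes from -1.03 to -0.98. Libraries did not overlap at any of the 6 (exact permutation p = 0.1 for each, also after adjustment). The sign of each difference was the same with the slope taken from 50 kb to 1 Mb. The median distance of all cis interactions was higher in DE at 5 viewpoints without overlap. Over interactions farther than 20 kb this held at Hba, Hbb and Slc25a37, whereas Lhx1 went the other way, from 551 to 291 kb without overlap (exact permutation p = 0.1), and Eomes overlapped (423 and 444 kb, exact permutation p = 0.4). Over all cis interactions, the median at Hba was 117, 138 and 144 kb in ESC and 286, 296 and 316 kb in DE. At Slc25a37 it was 276, 336 and 455 kb in ESC and 773, 778 and 950 kb in DE, again over all cis interactions. At Foxa2, interactions left both the nearest 20 kb and the range from 200 kb to 2 Mb. Its median over all cis interactions was 457 ± 50.3 kb (SD, n = 3) in ESC and 435 ± 53.2 kb in DE (exact permutation p = 0.6).

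**Figure D4:**
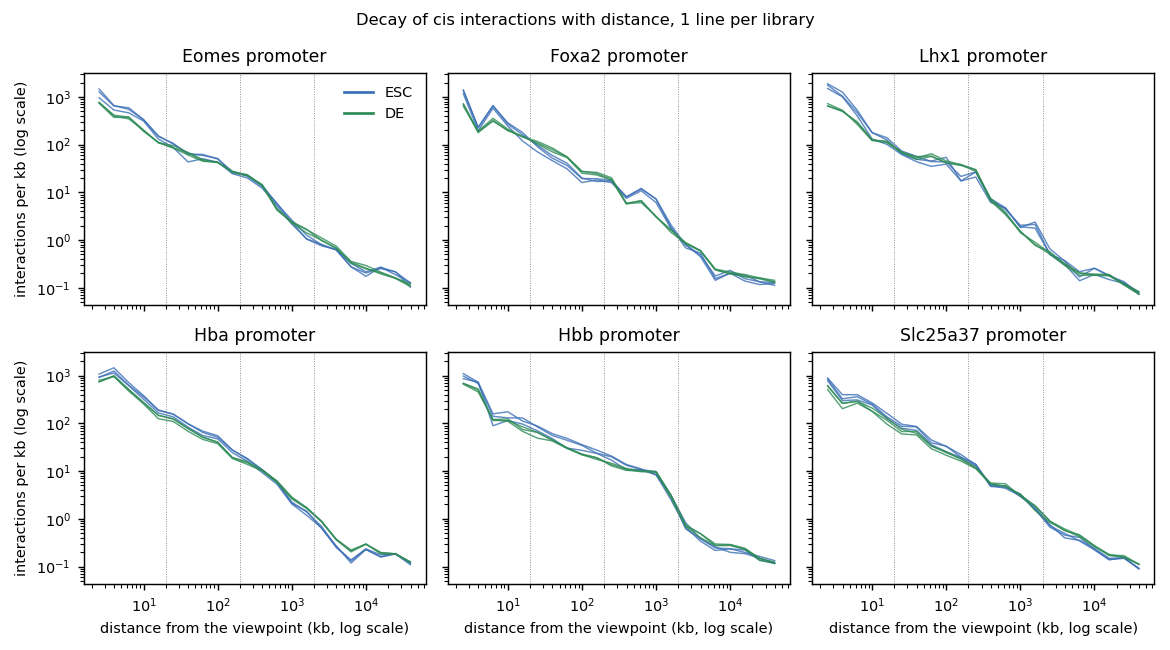
Interactions per kb against distance from the viewpoint (both log scales) with 1 line per library, ESC in blue and DE in green, and dotted lines at 20 kb, 200 kb and 2 Mb. At Foxa2 the ESC lines lie above the DE lines around 1 Mb (log2 DE over ESC -1.15 in the step at 999 kb) and below them from 20 to 200 kb, and at Hba, Hbb and Slc25a37 the mean of ESC lies above that of DE in each step up to 200 kb, with single libraries overlapping in 3 steps at Hbb and 1 at Slc25a37.

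The balance between the 2 sides of a promoter also moved. From 200 kb to 2 Mb, 39.1%, 40.2% and 40.4% of the Eomes interactions lay on the side of higher coordinates in ESC and 29.3%, 31.2% and 29.9% in DE. A larger part of this class thus lay upstream of the gene in DE. At Foxa2 the percent rose, from 22.7%, 23.01% and 23.8% to 32.2%, 30.7% and 30.9%, and for this minus-strand gene that side is also upstream. These are percents within the class, and at Foxa2 the class itself fell from 22.9% to 15.6% of interactions. Lhx1 went from 63.1% ± 0.341 (SD, n = 3) to 69.2% ± 1.18, Hba from 54.8% ± 0.741 to 45.2% ± 0.278 and Slc25a37 from 53.9% ± 0.893 to 47.7% ± 0.454. At Hbb the libraries overlapped (35.8% ± 2.89 and 34.0% ± 0.843). Of 24 such values, over 4 classes and 6 viewpoints, 17 had no overlap between DE and ESC (exact permutation p = 0.1 each, 0.141 adjusted over the 24).

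Which genes lay where contacts were lost was read from 20 kb windows centred on the starts of protein-coding genes on the viewpoint's chromosome. Of 9425 windows, 360 had a mean of at least 30 interactions per 100000 and were tested, 119 at developmental and 241 at erythroid viewpoints. In DE 42 were lower (11.7%) and 2 higher (0.556%), and all 44 had no overlap between libraries. At the developmental viewpoints 27 were lower and 0 higher, and at the erythroid viewpoints 15 were lower and 2 higher. Of the 44, 16 had a DE mean under the minimum and passed it only through their level in ESC. Neighbouring windows share reads. How many windows rose depended on the tool and scaling, since edgeR on recovered reads called 28 higher and 48 lower, DESeq2 11 and 33, and quantile normalization 12 and 17.

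At Foxa2, 9 of the 34 windows tested were lower in DE, and 6 of these 9 belong to developmental regulators. The window of Pax1, a paired-box factor of the sclerotome and pharyngeal pouches, lies 0.685 Mb away. It had 2136, 2010 and 1855 interactions per 100000 in ESC and 305, 378 and 341 in DE (log2 change -2.52, standard error 0.13, adjusted p = 5.84e-09 by limma). The window of Nkx2-2, a homeodomain factor of ventral neural tube and pancreas, lies 0.853 Mb away and had 1742 ± 209 in ESC and 308 ± 51.3 in DE (-2.47, adjusted p = 4.00e-08). The window of Sstr4, a somatostatin receptor gene, lies 0.349 Mb away on the other side and fell from 599, 766 and 761 to 130, 169 and 214 (-2.01, adjusted p = 1.29e-05). These 3 losses were past the threshold with any 1 library left out. With quantile normalization the calls of Pax1 (-0.36, adjusted p = 0.43) and Nkx2-2 (-0.55, adjusted p = 0.234) were lost, and with erythrocytes in the fit that of Sstr4 (adjusted p = 0.0676).

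At Lhx1, the largest loss of the whole set was with the window of Tbx4, a T-box factor of hindlimb and lung, 1.36 Mb away. It had 580, 724 and 575 in ESC and 54.9, 42.4 and 16.9 in DE, 16.5 times less on average (log2 change -3.81, standard error 0.31, adjusted p = 5.43e-07 by limma). The window lies within the 100 kb bin at 1.35 Mb described above. Slfn5, a Schlafen family gene 1.57 Mb away, fell from 99.1, 85.9 and 132 to 14.4, 11.2 and 30.4 (-2.05, adjusted p = 0.00102), and Unc45b, which encodes a myosin chaperone of muscle, from 99.1, 67.9 and 54.4 to 11.6, 17.9 and 0 (-2.17, adjusted p = 0.0036). Unc45b rests on 47 reads over 6 libraries. Tmem132e, a membrane protein gene 2.14 Mb away, fell from 122, 158 and 93.2 to 14.4, 26.8 and 30.4 (-1.99, adjusted p = 0.000814). Without the minimum Slfn5 (adjusted p = 0.0599), Tmem132e (adjusted p = 0.0599) and Unc45b (adjusted p = 0.0888) did not pass, and with erythrocytes in the fit Tmem132e did not (adjusted p = 0.0601).

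At Eomes, whose share from 200 kb to 2 Mb did not fall, the named losses were all far away on chromosome 9. Of 1230 windows beyond 2 Mb 15 were tested and 8 were lower, all 8 with a DE mean under the minimum of 30, so that they were tested only through their level in ESC and the count of losses is partly set by that minimum. Foxl2, a forkhead factor of ovary and eyelid, lies 19.5 Mb away. Its window had 133, 86.4 and 123.5 in ESC and 7.16, 10.8 and 17.8 in DE (log2 change -2.51, standard error 0.34, adjusted p = 0.000151 by limma). The window of Sox14, an HMG-box factor of neurons 18.6 Mb away, fell from 95.7 ± 8.73 to 11.3 ± 2.75 (-2.31, adjusted p = 0.000175). Foxb1, a forkhead factor of the diencephalon 48.8 Mb away, fell from 76.7, 54.5 and 43.6 to 2.39, 7.18 and 8.91 (-2.07, adjusted p = 0.0024). Tbx18, a T-box factor of epicardium and somites 30.8 Mb away, fell from 55.8, 136 and 94.4 to 26.3, 25.1 and 17.8 (-1.61, adjusted p = 0.00748) and lost its call when ESC replicate 2 was left out, with quantile normalization and with erythrocytes in the fit. Without the minimum, over all windows, Foxb1 (adjusted p = 0.0599) and Tbx18 (adjusted p = 0.262) did not pass. These far windows are thin, with 37 to 82 reads over 6 libraries each.

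**Figure D5:**
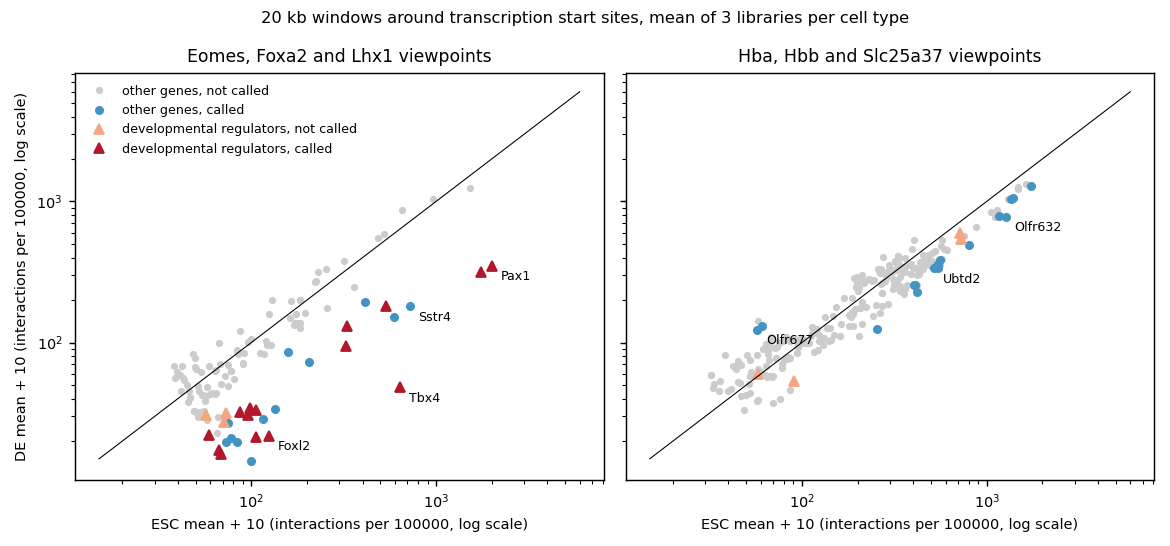
Mean interactions per 100000 plus 10 in ESC (x axis) and DE (y axis), both on log scales, for the 360 windows around gene starts that were tested, with the line of equality. Developmental regulators are triangles. Called windows at the developmental viewpoints lie far below the line and those at the erythroid viewpoints close to it. Windows low in DE are in the plot only where their level in ESC lifted the mean to 30.

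Across the developmental regulators, chosen by the names of transcription factor families, 18 of 84 windows at the 3 developmental viewpoints were tested. Of the 18, 12 had a DE mean under the minimum and were tested only through their level in ESC, so the count of 15 lower and 0 higher describes windows chosen for being high in ESC. Of the other genes' windows tested at these viewpoints, 12 of 101 were lower and 0 higher. The 3 regulator windows that did not pass were Hoxb5 (-1.10, adjusted p = 0.193), Hoxb6 (-0.997, adjusted p = 0.168) and Hoxb7 (-0.75, adjusted p = 0.283), neighbours at 11.8 Mb from Lhx1. At the erythroid viewpoints 4 of 61 were tested and 0 passed. Among them Nkx2-6, a homeodomain gene 114 kb from Slc25a37, was at -0.40 (adjusted p = 0.172).

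The mean over every window of the list, tested or not, avoids that minimum. It is not independent of the counts above, since it holds the same called windows, and neighbouring windows in it share reads. The list was chosen with earlier results of these data known. Beyond 2 Mb from Eomes the 12 regulator windows averaged 63.4, 51.1 and 47.2 interactions per 100000 in ESC and 10.5, 9.57 and 12.1 in DE, 0.199 times the ESC mean, while all windows in that class were at 0.959 times. For the 36 around Foxa2 the ratio was 0.335 (all windows 1.04) and for the 29 around Lhx1 it was 0.355 (all windows 0.920). At Hba, on the same chromosome as Lhx1, the 31 regulator windows averaged 1.90 in ESC and 2.05 in DE, with overlapping libraries. At Slc25a37 the 9 windows went from 13.8 to 9.64 without overlap, a ratio of 0.697 (all windows 1.12). At Hbb the 16 windows went from 2.53 to 1.21 with overlapping libraries, a ratio of 0.478 (all windows 1.23). In ESC the mean at Slc25a37 was thus above that at Foxa2 (13.4), and the means at Hba and Hbb were the lowest of the 6. The housekeeping genes, families of ribosomal, proteasomal and respiratory chain subunits among others, had 68 windows at the developmental viewpoints. Only 1 of these was tested, at Lhx1, and it did not pass (-0.62). Beyond 2 Mb the mean of the housekeeping windows in DE over ESC was 1.42 at Eomes, 1.72 at Foxa2 and 1.30 at Lhx1. These ratios came from means of at most 5.23 interactions per 100000, and the libraries overlapped at Eomes and Lhx1 but not at Foxa2. The erythroid viewpoints rose as well. The ratio was 1.28 at Hba and 1.38 at Slc25a37, both with overlapping libraries. At Hbb the mean went from 0.54 to 1.89 without overlap. The rise was thus not particular to the developmental viewpoints. Pluripotency genes had 6 windows at the developmental viewpoints, of which 0 reached the minimum, and erythroid genes had 14, of which 0 did.

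At the erythroid viewpoints the called windows lay nearer and changed less. At Hbb 11 of the 13 called windows are those of olfactory receptor genes, which flank the globin cluster on both sides and make up 130 of the 160 windows tested there. Many of these genes resemble each other, so reads may be placed on a copy in error. Olfr632, 110 kb away, fell from 1463, 1262 and 1047 to 832, 829 and 638 (log2 change -0.70, adjusted p = 0.00614 by limma). Olfr610, 307 kb to the other side, fell from 410 ± 91.0 (SD, n = 3) to 218 ± 45.2 (-0.88, adjusted p = 0.0216), Olfr616 from 536 to 329 (-0.69, adjusted p = 0.0156) and Trim12c, a TRIM family gene 526 kb away, from 339, 212 and 187 to 129, 125 and 87.3 (-1.02, adjusted p = 0.0245). The 2 windows that rose were those of Olfr677, from 35.7, 49.97 and 56.1 to 93.4, 117 and 128 (1.11, adjusted p = 0.0216), and Olfr672, from 71.4, 25.0 and 56.1 to 89.0, 144 and 128 (1.16, adjusted p = 0.0399), both about 1.2 Mb away. The window of Hbb-y, the embryonic beta-globin gene 25.5 kb away and the only tested erythroid gene to pass, fell from 1731 to 1270.1 (-0.45, adjusted p = 0.0349, rising to 0.251 with 1 library left out). At Hba, Ubtd2, a ubiquitin domain gene 159 kb away, fell from 530, 508 and 486 to 313, 355 and 307 (-0.63, adjusted p = 0.0261) and Stk10, a kinase gene of lymphocytes, from 393, 457 and 345 to 236, 279 and 219 (-0.68, adjusted p = 0.0399). At Slc25a37, Loxl2, a lysyl oxidase gene 106 kb away, fell from 490, 530 and 584 to 379, 351 and 317 (-0.60, adjusted p = 0.0351). With single libraries left out, the call of Olfr632 was lost without DE replicate 3, and those of Olfr610, Olfr616, Trim12c, Olfr677, Olfr672, Ubtd2, Stk10 and Loxl2 were each lost without at least 2 of the 6 libraries in turn. None of these 9 passed without the minimum (adjusted p from 0.0599 to 0.609) or with erythrocytes in the fit (0.238 to 0.951).

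The density of genes met by far contacts was compared last, as the mean number of protein-coding starts per Mb weighted by interactions. Beyond 2 Mb from Hba it was 12.7, 12.6 and 12.3 in ESC and 11.4, 11.5 and 11.4 in DE, so DE contacts lay in less gene-dense regions. Foxa2 went from 10.9 ± 0.210 (SD, n = 3) to 11.3 ± 0.0630 and Eomes from 10.7 ± 0.110 to 11.03 ± 0.0983. At Lhx1 and Hbb the libraries overlapped. In trans, Hbb had the largest change, from 8.87 ± 0.128 to 8.31 ± 0.125. None of the 12 values went below exact permutation p = 0.1 (0.171 adjusted over the 12), the smallest that the design allows, and 7 of the 12 had no overlap.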

How the data were processed

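NG Capture-C was analysed in 3 ESC and 3 DE libraries of the promoter capture, grouped by their labels, over 6 viewpoints. Members and gene lists were chosen with earlier results of these data known. The authors trimmed reads with Trim Galore and aligned them with Bowtie to mm9, per the labels, and assigned them to DpnII fragments with Capture-C scripts. How duplicates were treated, and with which tool versions, was not given in these sources. The deposited signal per fragment is scaled to 100000 interactions per column. All 97940 fragments compared with NCBIM37 had both ends 2 bases into GATC. Values were whole multiples of 1 read within 0.05, and reads were recovered from them. Fragments of captured zones hold no values. Of the 108 columns in the files, 90 were used and the rest, from the erythrocyte enhancer capture, were not used here.

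Signal was summed by distance of the fragment centre from the nearest zone centre. Class percents were compared by limma on log2 values over 30 class values. Bins (2 kb, 10 kb, 100 kb and 2 Mb by class, and 1 per other chromosome) and 20 kb gene windows with a mean of at least 30 per 100000 were compared by limma with a trend on log2(value + 10), which understates changes of low values. P-values were adjusted by Benjamini-Hochberg, threshold 0.05. Bin and window values are interactions per 100000. Other comparisons used exact permutation tests (two-sided), whose smallest p for groups of 3 is 0.1. Windows named were, per viewpoint, up to 4 higher and 4 lower in DE with the largest change among those past the threshold without overlap between libraries, and bins named were the largest rise and fall per class. A window that this rule names at Foxa2 is not reported here. Hbb-y, the Hoxb genes and Nkx2-6 were named outside this rule, after their values were seen. edgeR, DESeq2, other totals, bounds, filters, pseudocounts, quantile normalization, erythrocytes in the fit, the replicate number as a block and each library left out were alternatives. In pairs of replicates, the lowest chi-square over its degrees of freedom was 0.983, at 1 of 36 pairs, and the next lowest was 1.24, so all libraries were kept apart. Reads carry no molecular identifiers, so PCR copies may be among them and counting error understates the spread.

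The tests were tested on simulated data with known changes. R 4.3.3, limma 3.58.1, edgeR 4.0.16, DESeq2 1.42.0, Python 3.11.15, numpy 2.4.6, pandas 2.3.3, scipy 1.17.1 and matplotlib 3.10.9 were used.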

Additional observations from a re-analysis of the deposited data

Results flagged for a closer look

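The change from ESC to DE differed between the developmental viewpoints (Eomes, Foxa2, Lhx1) and the erythroid viewpoints (Hba, Hbb, Slc25a37) in 4 of 5 distance classes by limma over the classes. That fit was chosen after the values were seen, and its standard error pools dependent classes, so it overstates the evidence. It weighs the spread over libraries, not the spread over the 3 genes a side. The difference in log2 change was -0.32 within 20 kb, 0.64 from 20 to 200 kb, -0.23 from 200 kb to 2 Mb and -0.13 beyond 2 Mb. The exact permutation test over 3 libraries against 3 could not go below 0.1 for any of them. With bounds at 10 kb, 100 kb and 1 Mb the difference from 200 kb to 2 Mb turned to 0.09. Beyond 2 Mb Foxa2 (0.28) rose as much as the erythroid viewpoints (0.24 to 0.28).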

How the results depend on the processing

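Within 20 kb the share was lower in DE past the threshold at all 6 viewpoints under each alternative that keeps this class, except the fit with erythrocytes, where no class value passed it (0 higher and 0 lower, against 8 and 10). Without the nearest 20 kb, 5 values were higher and 5 lower, and without 5 kb around the zone 5 were higher. Near 0, signs turned. As a percent of cis interactions Eomes at 20 to 200 kb was 0.00814, Lhx1 0.00733 and Hbb 0.0135 at 200 kb to 2 Mb, and Lhx1 0.16 beyond 2 Mb. At 200 kb to 2 Mb, Eomes was -0.0312, Hba -0.0131 and Slc25a37 -0.0273 without the nearest 20 kb, and Slc25a37 -0.00562 without 5 kb, while Lhx1 passed as lower (-0.33 and -0.31). With bounds at 10 kb, 100 kb and 1 Mb, Eomes was -8.55e-07, Lhx1 0.18, Hba -0.15 and Slc25a37 -0.0826, and the developmental minus erythroid change 0.0947. limma over the classes, added after the values were seen, passed the threshold at -0.32, 0.64, -0.23 and -0.13, in order of distance, which the permutation test could not. Bins called higher were 96 with DESeq2, and with erythrocytes 2 higher and 3 lower. Gene windows called higher and lower were 0 and 10 without a filter, 0 and 27 with a mean of at least 100, 12 and 17 with quantile normalization, 0 and 15 with erythrocytes, 1 and 21 at 10 kb and 8 and 65 at 40 kb. Windows called higher were 4 with a pseudocount of 50, 6 per 100000 in cis, 28 with edgeR and 11 with DESeq2. The cause of these shifts was not tested.

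Deviations of same-numbered ESC and DE libraries were little correlated (-0.02, 0.03 and 0.10), so no pairing was assumed in the main fits. Replicate 3 had the highest trans share in both cell types at every viewpoint. Whether same-numbered libraries share a batch was not tested. With the replicate number as a block, 11 class values were higher and 11 lower, 204 and 182 bins, and 5 and 52 windows. Within numbers the developmental minus erythroid change at 20 to 200 kb was 0.64 (exact sign-flip p = 0.25, the smallest that 3 pairs allow).

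With single libraries left out, class values called higher ranged from 6 to 13, bins higher from 68 to 245 and lower from 78 to 200, and windows higher from 0 to 5 and lower from 21 to 63. The highest class, bin and window counts all came without ESC replicate 3. Bin counts fell by over 1.5 times without any 1 DE library (68 to 79 higher, 78 to 94 lower) and, for lower bins, without ESC replicate 2 (95). Windows called lower fell to 24 without ESC replicate 2, 22 without DE replicate 2 and 21 without DE replicate 3, and none was then called higher without DE replicate 2 or 3. Near 0, Eomes at 200 kb to 2 Mb ranged from -0.00441 to 0.0988, Lhx1 beyond 2 Mb from -0.0913 to 0.0169 and Slc25a37 at 200 kb to 2 Mb from -0.00871 to 0.0462. For Slc25a37 the gene density met in trans changed by -0.118 to 0.0494 per Mb and the percent on the side of higher coordinates at 20 to 200 kb by -1.06 to 1.103. The median distance at Foxa2 changed by -46.7 to 6.15 kb. Depth limits the gene windows, of which those named beyond 2 Mb from Eomes rest on 37 to 82 reads and Unc45b on 47.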
